A study of Mus musculus with 18 samples.

Results

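The clustered protocadherin genes lie side by side on mouse chromosome 18 in the order alpha, beta and gamma. They were taken as the 52 rows of the deposited peak table whose gene symbol begins with Pcdha, Pcdhb or Pcdhg. To these were added the 10 other peaks inside the window from the first gene start to the last gene end of those rows, chromosome 18 from 37085701 to 37974926 in GRCm39, a stretch of 889226 nt. This gave 62 of the 101256 peaks, with 9 alpha, 19 beta and 24 gamma rows for 9, 19 and 21 genes. No peak with such a symbol lay on another chromosome. No row of the table carried the symbol *Pcdhac2*, *Pcdhgc5*, *Pcdha1* to *Pcdha3*, *Pcdha7*, *Pcdhb1*, *Pcdhb9* or *Pcdhb10*.

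Clustered protocadherins are cadherin-related adhesion proteins at the cell surface, best known from neurons, in which different cells show different sets of isoforms and recognize their own branches by them. In the alpha and gamma clusters each variable exon has its own promoter and is spliced to constant exons shared by the cluster, whereas beta genes have a single coding exon. CTCF, a DNA-binding protein that anchors chromatin loops together with cohesin, binds at most of these promoters and takes part in choosing which of them contact distant enhancers. Neurons make up few of the cells of a heart.

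The chromatin came from snap-frozen ventricles, and the hearts of 2 adult mice went into one preparation. WT hearts were compared with *Trdn-as* KO hearts, in which a polyA site inserted with Cas9 into exon 1 of *Trdn-as* on a C57BL/6 background stops the antisense RNA, and with *Mettl3* KO hearts. The latter carried Mettl3lox/lox:alphaMHC-MerCreMerpos and received tamoxifen as adults. The study's methods also describe Cre-free Mettl3lox/lox controls that received it, and whether the hearts labelled WT came from such mice is not stated. This Cre acts in cardiomyocytes, so other heart cells keep *Mettl3*, which encodes the m6A methyltransferase. Each genotype had 2 libraries for CTCF, the positive control of the kit, 2 for RNA polymerase II (Pol II, B1 subunit) and 1 for IgG, the background. Nothing says that the replicates came from separate preparations, so p-values measure only the spread between these libraries, which may be technical.

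The values are read counts per peak divided by a DESeq2 size factor, as the authors deposited them in whole numbers. The reads in peaks, estimated from the spacing of the values, ran from 6789516 to 10163561 for CTCF, 1987571 to 4953296 for Pol II and 273457 to 813042 for IgG. A single read was worth between 0.284 and 0.458 for CTCF, between 0.945 and 2.04 for Pol II and between 2.55 and 6.57 for IgG, so values of different antibodies were compared only as RPM, that is, relative to the uniquely mapped reads of the library. *Trdn-as* KO replicate 2 for Pol II stood apart, with 18.6% of its unique reads in peaks against 35.5% to 42.6% in the other Pol II libraries. Pol II at the *Trdn-as* promoter was 530 and 595 for WT, 503 and 491 for *Mettl3* KO and 140 and 100 for *Trdn-as* KO. Summed Pol II at Y chromosome peaks was 279 and 326 for WT, 223 and 239 for *Mettl3* KO and 0 and 0 for *Trdn-as* KO, so sex and the *Trdn-as* genotype cannot be told apart. A cell type with fewer cells and one with less signal per cell cannot be told apart either.

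The tissue label was checked with markers of heart cell types. Summed Pol II at the promoters of 8 cardiomyocyte markers was 22900 to 31325 over the 6 libraries. The sum was 756 to 1081 for the 5 endothelial markers with a promoter peak, 530 to 894 for 5 mural, 179 to 273 for 5 leukocyte and 85 to 127 for 4 Schwann cell markers. The 5 neuron markers with a promoter peak summed to 44 to 84, with a mean below 10 for 3 of them. The 6 fibroblast markers summed to 824 and 867 for WT, 1233 and 886 for *Trdn-as* KO and 1661 and 1626 for *Mettl3* KO.

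The levels of both proteins ran in the order gamma, beta, alpha over the 3 clusters. Per kilobase of peak, the median CTCF level was 6.95 RPM in the gamma cluster, 4.27 RPM in the beta cluster and 3.21 RPM in the alpha cluster, and Pol II followed with 1.67, 0.55 and 0.236 RPM. The IgG medians were 0.577, 0.43 and 0.166 RPM per kb in the same order. CTCF was above IgG in all 62 peaks. Pol II was above IgG in 24 of 24 gamma, 14 of 19 beta and 5 of 9 alpha peaks. Pol II in the alpha peaks rested on few reads, 3.67 to 12.8 for the 9 peaks together in a library, and 31 of its 54 values were 0. Among all peaks of the table, ranked by mean value and not per kilobase, the median gamma peak stood at the percentile 77.8 for CTCF and 70 for Pol II. The median beta peak stood at 53.5 and 26.6, and the median alpha peak at 30.4 and 7.81. These ranks make no allowance for peak length, which differed between the clusters. These levels are a description of 1 locus and were not tested.

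**Figure D1:**
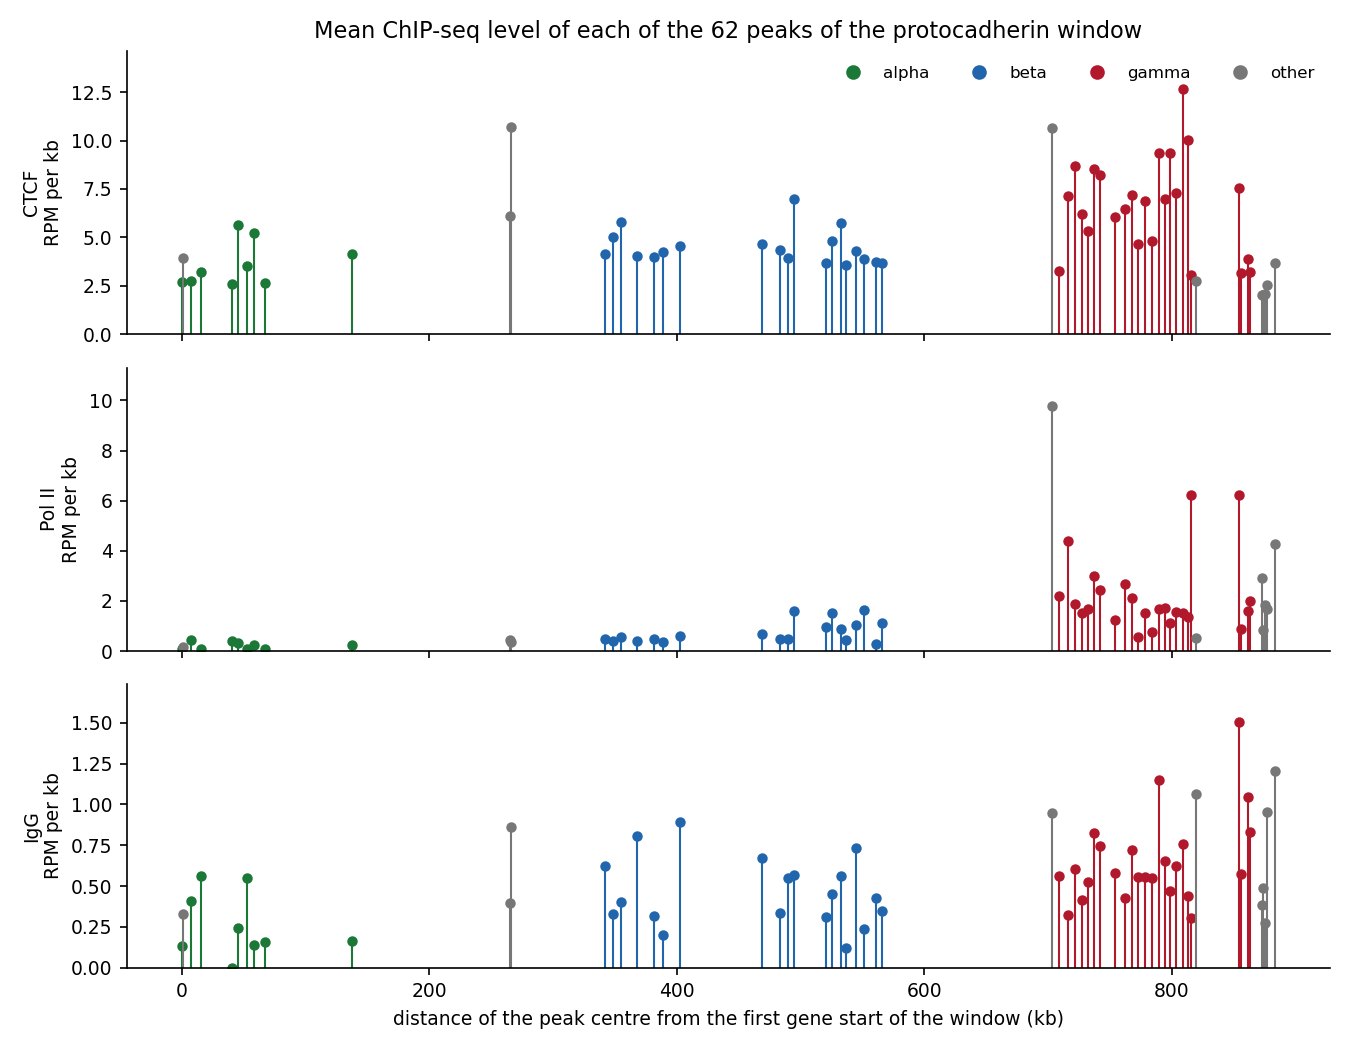
Mean level of CTCF, Pol II and IgG (rows; RPM per kb of peak, each with its own axis) at each of the 62 peaks against the distance of the peak centre from the first gene start of the window in kb. Colours mark the alpha, beta and gamma rows and the other peaks. CTCF is at 2.02 RPM per kb or more at every peak, whereas Pol II is near 0 over the alpha cluster, low over the beta cluster and highest at *3222401L13Rik* and single gamma peaks.

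The peaks were promoter peaks for the most part. The centre lay within 250 nt of the annotated start in 7 of 9 alpha, 18 of 19 beta and 18 of 24 gamma rows. Its median position was 75 nt upstream of the start in the alpha rows, 29 nt upstream in the beta rows and 78 nt downstream in the gamma rows. The peaks were short in the alpha cluster, with a median length of 210 nt, and longer in the beta and gamma clusters with 398 and 713.5 nt. Within each cluster the CTCF value was higher in longer peaks, with a Spearman rho of 0.93 over 9 alpha, 0.91 over 19 beta and 0.83 over 24 gamma peaks. These points share the libraries, and a longer peak collects more reads, so peaks are compared per kilobase. CTCF and Pol II per kilobase went together little from peak to peak, with a rho of -0.03 in the alpha, 0.25 in the beta and 0.06 in the gamma cluster. The order of the peaks was better kept between libraries for CTCF, with a rho between replicates of 0.97 to 0.99 in the gamma, 0.81 to 0.95 in the beta and 0.79 to 0.98 in the alpha cluster. For Pol II it was 0.60 to 0.69, 0.29 to 0.60 and -0.48 to 0.67.

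The authors labelled a peak with its nearest gene, whose promoter was taken as 5000 nt either side of the start. The label is not always the nearest start. The peak that holds the start of the noncoding gene ENSMUSG00000097330 carries the symbol *Pcdhga12*. In the alpha and gamma clusters the variable exons overlap as annotated genes because they share their last exons. *Gm37013*, a protein-coding annotation, spans nearly the whole window from 37085794 to 37973253, the beta genes included. A read inside the clusters therefore cannot be given to 1 gene beyond the start it lies at. The genes are paralogs, and the authors dropped reads that mapped to several places, which lowers the count where copies are near-identical.

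In the alpha cluster, *Pcdha9* had the most CTCF, with values of 30 and 26 for WT, 22 and 28 for *Trdn-as* KO and 19 and 21 for *Mettl3* KO (chromosome 18 from 37130501 to 37131022). It held a median of 29.4% of the summed CTCF of the cluster. *Pcdhac1*, the C-type alpha gene with a row, followed with 17 and 15, 20 and 23, and 11 and 13 in the same order. C-type genes are known to be used more evenly among neurons than the other variable exons. *Pcdha11* and *Pcdha8* were next, between 11 and 15 and between 5 and 14 over the 6 libraries. The 3 alpha peaks with the highest mean Pol II, *Pcdha8*, *Pcdha9* and, level with *Pcdhac1*, *Pcdha5*, had medians of 1.5, 2.5 and 0.5, and *Pcdhac1* had 0 to 3. *Pcdha8* reached 12 in *Trdn-as* KO replicate 2, or 5.89 reads, and at most 2 in the other libraries. None of the 9 alpha rows had enough Pol II for the test, and 4 had enough CTCF.

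A pair of peaks with no gene began 29.6 kb past the end of the alpha genes. The larger one, from 37351143 to 37351819, had CTCF values of 63 and 54 for WT, 61 and 66 for *Trdn-as* KO and 56 and 61 for *Mettl3* KO, more than any alpha promoter, and 10.7 RPM per kb. Its Pol II values were 0 to 7, with 0.367 RPM per kb against 0.859 RPM per kb for IgG. The smaller one, from 37350298 to 37350680, had CTCF values of 16 and 19 for WT, 21 and 23 for *Trdn-as* KO and 18 and 19 for *Mettl3* KO, and Pol II values of 0 to 6. The genotypes overlapped at the larger peak, whereas at the smaller one both CTCF values of *Trdn-as* KO lay above the other 4.

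In the beta cluster, CTCF was highest at *Pcdhb14*, with 40 and 32 for WT, 34 and 37 for *Trdn-as* KO and 29 and 26 for *Mettl3* KO (37580432 to 37581002). *Pcdhb17* had 41 and 28, 22 and 32, and 32 and 28 in the same order, and *Pcdhb3* had 37 and 27, 20 and 23, and 28 and 25. Both *Pcdhb3* values of *Trdn-as* KO lay below both WT values. At *Pcdhb11* CTCF was 27 and 26 for WT, 15 and 15 for *Trdn-as* KO and 23 and 23 for *Mettl3* KO (37554301 to 37554862), and the 3 genotypes did not overlap. Pol II was highest at *Pcdhb14* (8 to 29), *Pcdhb16* (8 to 14) and *Pcdhb19* (0 to 16). Per kilobase, *Pcdhb20* had the highest Pol II of the cluster with 1.63 RPM, close to *Pcdhb14* with 1.60 and *Pcdhb16* with 1.51. Of the 19 beta rows 17 were tested for CTCF and 5 for Pol II.

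In the gamma cluster, the broad peak at *Pcdhgc3* had the highest value of both proteins, and per kilobase it stood out for Pol II but not for CTCF (37938843 to 37941185, 2343 nt). This C-type isoform is known to bind Axin1 and to dampen Wnt signalling. CTCF was 156 and 132 for WT, 139 and 159 for *Trdn-as* KO and 145 and 150 for *Mettl3* KO. Pol II was 207 and 183 for WT, 201 and 140 for *Trdn-as* KO and 228 and 182 for *Mettl3* KO. The genotypes overlapped for both. The peak held a median of 30.5% of the summed Pol II of the cluster and 13.2% of its CTCF. Per kilobase it had 6.22 RPM of Pol II, 7.57 RPM of CTCF, near the gamma median, and 1.5 RPM of IgG, the highest IgG level of the window.

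*Pcdhgb8* had the next highest CTCF values of the gamma rows, with 116 and 95 for WT, 116 and 138 for *Trdn-as* KO and 97 and 97 for *Mettl3* KO (37894243 to 37895288), and at 12.7 RPM per kb the highest CTCF level of the window. *Pcdhgb7* and *Pcdhgb6* followed with 65 to 85 and 55 to 78. *Pcdhgc4*, the gamma isoform known to be needed for the survival of certain neurons, had CTCF values of 29 to 41 and Pol II values of 25 to 40 (37948056 to 37949277). A further peak with the label *Pcdhga12*, centred 2708 nt past that start (37901137 to 37901546), had little CTCF, 9 to 12. Its Pol II values were 35 and 32 for WT, 47 and 16 for *Trdn-as* KO and 33 and 34 for *Mettl3* KO. With 6.22 RPM per kb its Pol II level was as high as that of *Pcdhgc3*. The peak also holds the start of the noncoding gene ENSMUSG00000097330, at 37901295 on the other strand. Its Pol II therefore cannot be given to either gene alone. *Pcdhga2*, near the beginning of the cluster, had Pol II values of 44 and 52, 49 and 29, and 42 and 42.

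Among the other peaks of the window, the promoter of the long noncoding RNA *3222401L13Rik*, between the beta and gamma genes (37788231 to 37789487), had the highest Pol II level, 9.79 RPM per kb. Pol II was 173 and 176 for WT, 174 and 112 for *Trdn-as* KO and 169 and 154 for *Mettl3* KO, and CTCF was 126 and 105, 110 and 125, and 101 and 98. A peak with no gene near the end of the window (37968327 to 37970097) had Pol II values of 89 and 97, 105 and 94, and 121 and 96. CTCF there was 47 and 50 for WT, 45 and 55 for *Trdn-as* KO and 62 and 62 for *Mettl3* KO. CTCF was 2 to 15 at the 5 peaks labelled with 3 noncoding genes without a symbol. Pol II at the strongest peak with each label was 10 to 34 for ENSMUSG00000102828 and 1 to 24 for ENSMUSG00000102713. The peak labelled *Gm37013* had 0 to 2. The peak labelled ENSMUSG00000097330 also had 0 to 2, but lies upstream of the start of that gene and does not hold it. The peak that holds this start carries the label *Pcdhga12* and had Pol II values of 16 to 47.

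**Figure D2:**
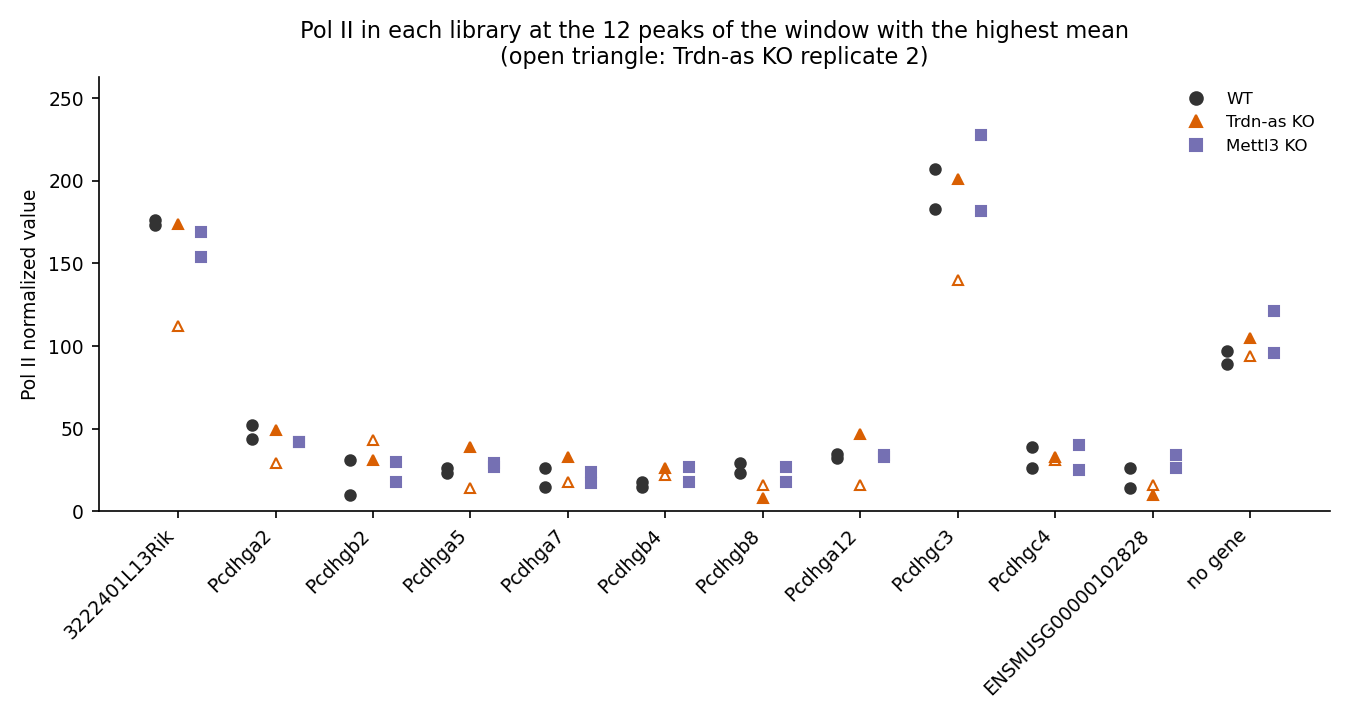
Pol II normalized value (axis from 0) in each of the 6 libraries at the 12 peaks of the window with the highest mean, in genomic order, with symbols for the genotypes and an open triangle for *Trdn-as* KO replicate 2. Values of the genotypes overlap at *Pcdhgc3*, and the open triangle is the lowest point at *3222401L13Rik*, *Pcdhga2*, *Pcdhga5*, *Pcdhga12* and *Pcdhgc3*.

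To ask whether the genotypes changed CTCF at the clusters, log2(value + 1) was fitted with limma over every peak that reached a value of 10 in 2 or more of the 6 libraries of an antibody, and p-values were adjusted by Benjamini-Hochberg over all of them. Such fold changes understate the change of low peaks. Of the 62 peaks 49 passed this filter for CTCF, with 4 alpha, 17 beta, 24 gamma and 4 other peaks. The comparisons with WT share the WT libraries, and all comparisons share one estimate of the spread.

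In *Trdn-as* KO against WT, 0 of the 49 CTCF peaks passed the threshold in limma, where 0.587% of the 60649 tested peaks did. An unadjusted p under 0.05 was reached by 9 of the 49, 5 of them beta and 4 gamma, against 10.2% of all tested peaks. Over the beta peaks the median log2 fold change was -0.39, against 0.04 over all tested peaks. The fold change was below 0 in 15 of 17 beta peaks, against 42.5% of all tested peaks, and both *Trdn-as* KO values lay below both WT values in 8 of 17, against 13.1%. The gamma peaks had a median of 0.12, 6 of 24 were below 0, and both *Trdn-as* KO values lay above both WT values in 6 of 24, against 19.4%. The 4 tested alpha peaks had a median of 0.23 with 1 below 0, and 0.05 with 2 below 0 without WT replicate 2. Scaled to RPM, 16 of 16 beta and 11 of 24 gamma peaks were below 0, against 57.7% of all peaks under that scaling. Without WT replicate 1, whose beta values were high, the beta median was -0.14 against 0.08 over all peaks, and 11 of 17 were below 0 against 39.1%. The gamma median was 0.06 without WT replicate 2 and 0.04 under RPM. The gamma count was 10 of 24 without WT replicate 2, against 53.1% of all, and 10 of 24 without *Trdn-as* KO replicate 2, against 45.8%. The smallest p belonged to *Pcdhb11*, with a log2 fold change of -0.78 (SE 0.18, adjusted p = 0.057), and *Pcdhb8* followed with -0.82 (SE 0.25, adjusted p = 0.241). Both *Pcdhb8* values of *Trdn-as* KO, 7 and 8, lay below those of WT, 15 and 13, and of *Mettl3* KO, 12 and 16. With the libraries set to an equal median log ratio, the change at *Pcdhb11* passed, at -0.81 (adjusted p = 0.0284), as 1 of 47 peaks of the window and 458 of all 59219 peaks under that scaling. It also passed in limma with a crossed replicate block chosen after seeing the data (-0.78, adjusted p = 0.0371), where 503 of all 60649 peaks did. In 10 of the 12 alternatives in which it was tested, *Pcdhb11* did not pass.

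**Figure D3:**
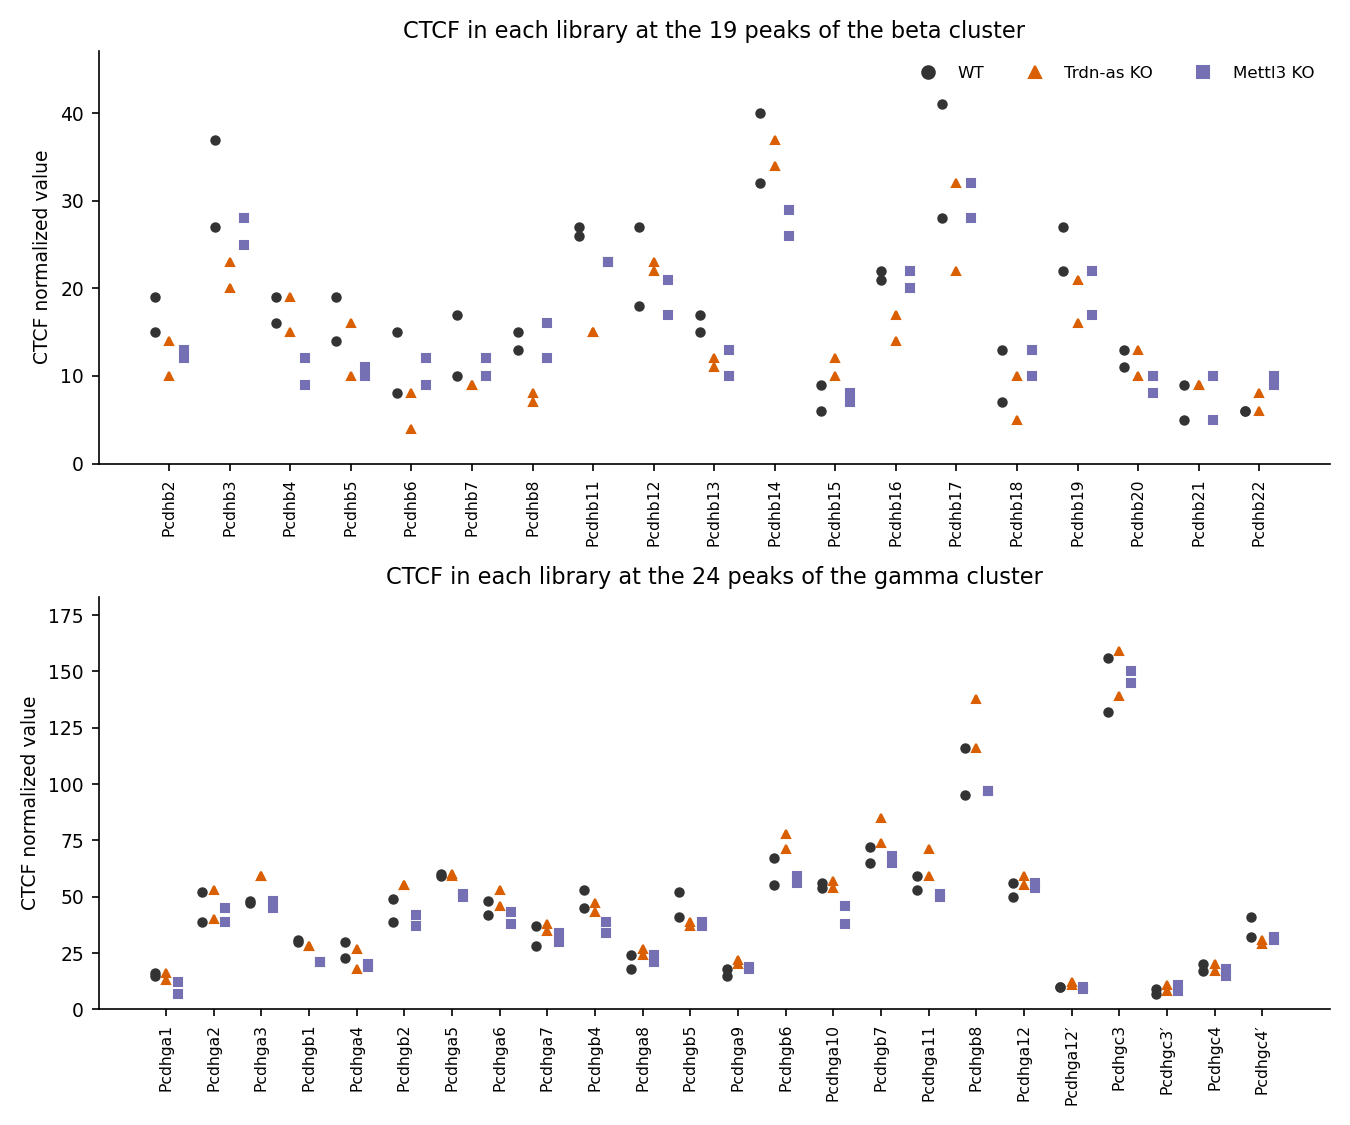
CTCF normalized value (axes from 0) in each of the 6 libraries at the 19 beta rows (top) and the 24 gamma rows (bottom), in genomic order, with symbols for the genotypes. A prime marks a further peak of a gene. At *Pcdhb11* the *Trdn-as* KO points coincide at 15, below WT at 26 and 27 and *Mettl3* KO at 23, and at 15 of the 24 gamma rows both *Trdn-as* KO points lie above both *Mettl3* KO points.

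In *Mettl3* KO against WT, 0 of the 49 peaks passed the threshold in limma, where 0.185% of all tested peaks did, and 9 had an unadjusted p under 0.05, against 15.7% of all tested peaks. The median log2 fold change was -0.23 in the beta and -0.13 in the gamma peaks against -0.06 over all tested peaks. It was below 0 in 15 of 17 beta and 19 of 24 gamma peaks, against 60.9% of all. Both *Mettl3* KO values lay below both WT values in 7 beta and 8 gamma peaks, against 27.7% of all, and above them in 1 of the 49 peaks, against 15.8%. The 4 tested alpha peaks had a median of -0.27 and all were below 0. These values moved with the WT library used. The alpha median was -0.15 without WT replicate 1, with 3 of 4 below 0, -0.52 without WT replicate 2 and -0.47 without *Mettl3* KO replicate 2. Without WT replicate 1 the beta median was -0.17 with 11 of 17 below 0, and the gamma median was -0.04 with 14 of 24 below 0, against 53.6% of all peaks. Without WT replicate 2 the medians were -0.49 with 16 of 17 and -0.23 with 21 of 24 below 0, against 66% of all. With an equal median log ratio the beta median was -0.19 with 13 of 16 below 0. The gamma median was then -0.07 with 16 of 24 below 0, against 50.4% of all. Scaled to RPM, 15 of 16 beta and 19 of 24 gamma peaks were below 0, against 59.1% of all. *Pcdhgb1* had the smallest p, with 30 and 31 for WT and 21 and 21 for *Mettl3* KO (log2 fold change -0.52, SE 0.16, adjusted p = 0.147). *Pcdhb4* had 19 and 16 for WT and 12 and 9 for *Mettl3* KO (-0.69, SE 0.23, adjusted p = 0.165).

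Between the knockouts, *Trdn-as* KO against *Mettl3* KO, 0 of 49 peaks passed in limma against 1.37% of all tested peaks, and 19 had an unadjusted p under 0.05 against 18.8% of all. The gamma peaks had a median log2 fold change of 0.24, against 0.09 over all tested peaks. It was below 0 in 1 of 24 gamma peaks, against 34.2% of all. This count was 2 to 5 of 24 when a library was left out, 5 without *Trdn-as* KO replicate 2 (35.4% of all peaks), 3 without *Mettl3* KO replicate 1 (36%) and 2 without either of the others. It was also 5 under RPM scaling, where 48.1% of all peaks were below 0, and with an equal median log ratio (49.8%). Both *Trdn-as* KO values lay above both *Mettl3* KO values in 15 of 24 gamma peaks, against 34.7% of all. In the beta cluster the median was -0.07, 10 of 17 were below 0, and both *Trdn-as* KO values lay below both *Mettl3* KO values in 6 of 17, against 12.6%. The beta median was -0.17 without *Trdn-as* KO replicate 2, -0.14 without *Mettl3* KO replicate 2, -0.05 without *Trdn-as* KO replicate 1, -0.20 under RPM, -0.21 with an equal median log ratio, and 0.10 over the 2 beta peaks left with the filter at 30. The 4 tested alpha peaks had a median of 0.55 with 0 below 0, and 0.37 to 0.68 with 0 or 1 below 0 when a library was left out. With an equal median log ratio 3 were tested, with a median of 0.21. *Pcdhac1* had the smallest p (log2 fold change 0.79, SE 0.21, adjusted p = 0.0668) and *Pcdhgb8* the next (0.38, SE 0.11, adjusted p = 0.102). *Pcdhgb8* passed the threshold in 1 of 12 alternatives, the filter at a value of 30 (adjusted p = 0.0458), where 1 of 22 peaks of the window and 1123 of all 31888 peaks passed.

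**Figure D4:**
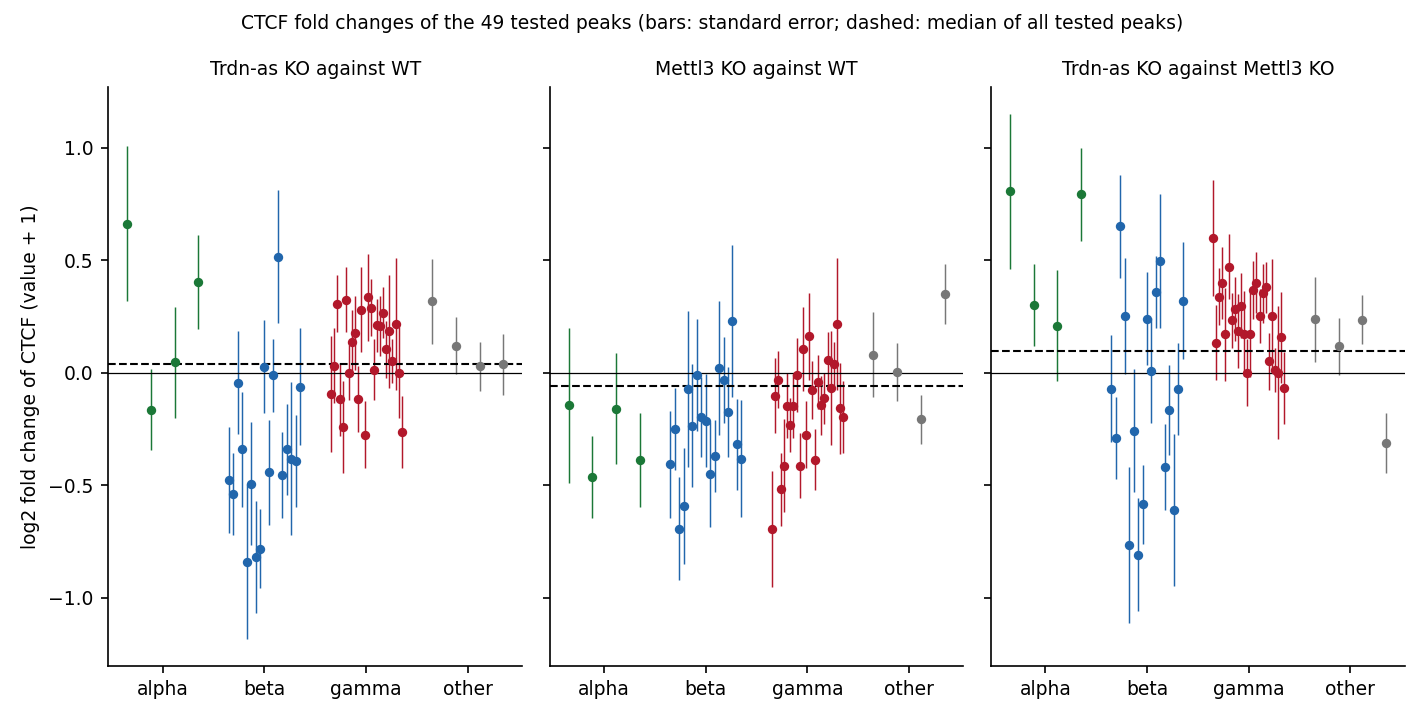
Log2 fold change of CTCF on the value + 1 scale, with its standard error, for the 49 tested peaks, grouped by cluster and in genomic order within it, in the 3 comparisons. The dashed line is the median of all 60649 tested peaks (0.04, -0.06 and 0.09), and the beta points of *Trdn-as* KO against WT lie mostly below it, with a median of -0.39.

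Summed over a cluster, CTCF per library was 388 and 304 for WT, 261 and 294 for *Trdn-as* KO and 295 and 289 for *Mettl3* KO for the beta rows. It was 1164 and 1027, 1129 and 1226, and 1004 and 995 for the gamma rows, and 98 and 81, 87 and 107, and 64 and 72 for the alpha rows. WT replicate 1 was the highest library of the beta cluster. The alpha sums of *Mettl3* KO lay below those of the other 4 libraries, and rested on 191 and 213 reads. The ratio of the beta to the gamma sum, which does not depend on the scaling of the libraries, was 0.333 and 0.296 for WT, 0.294 and 0.29 for *Mettl3* KO and 0.231 and 0.24 for *Trdn-as* KO. The *Trdn-as* KO libraries were the lowest of the 6 in this ratio. IgG, with 1 library per genotype, had the same order and close values in the background, 0.31 for WT, 0.28 for *Mettl3* KO and 0.23 for *Trdn-as* KO. The last of these rested on about 12.5 reads in the beta and 54.4 in the gamma rows. IgG over the beta rows was 0.298 to 0.623 RPM per kb, against 3.64 to 5.93 for CTCF. For Pol II the ratio had no such order, with 0.148 and 0.122 for WT, 0.119 and 0.134 for *Mettl3* KO and 0.114 and 0.198 for *Trdn-as* KO. With 2 libraries per genotype an exact permutation test could not give a p below 0.33, so none was made.

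**Figure D5:**
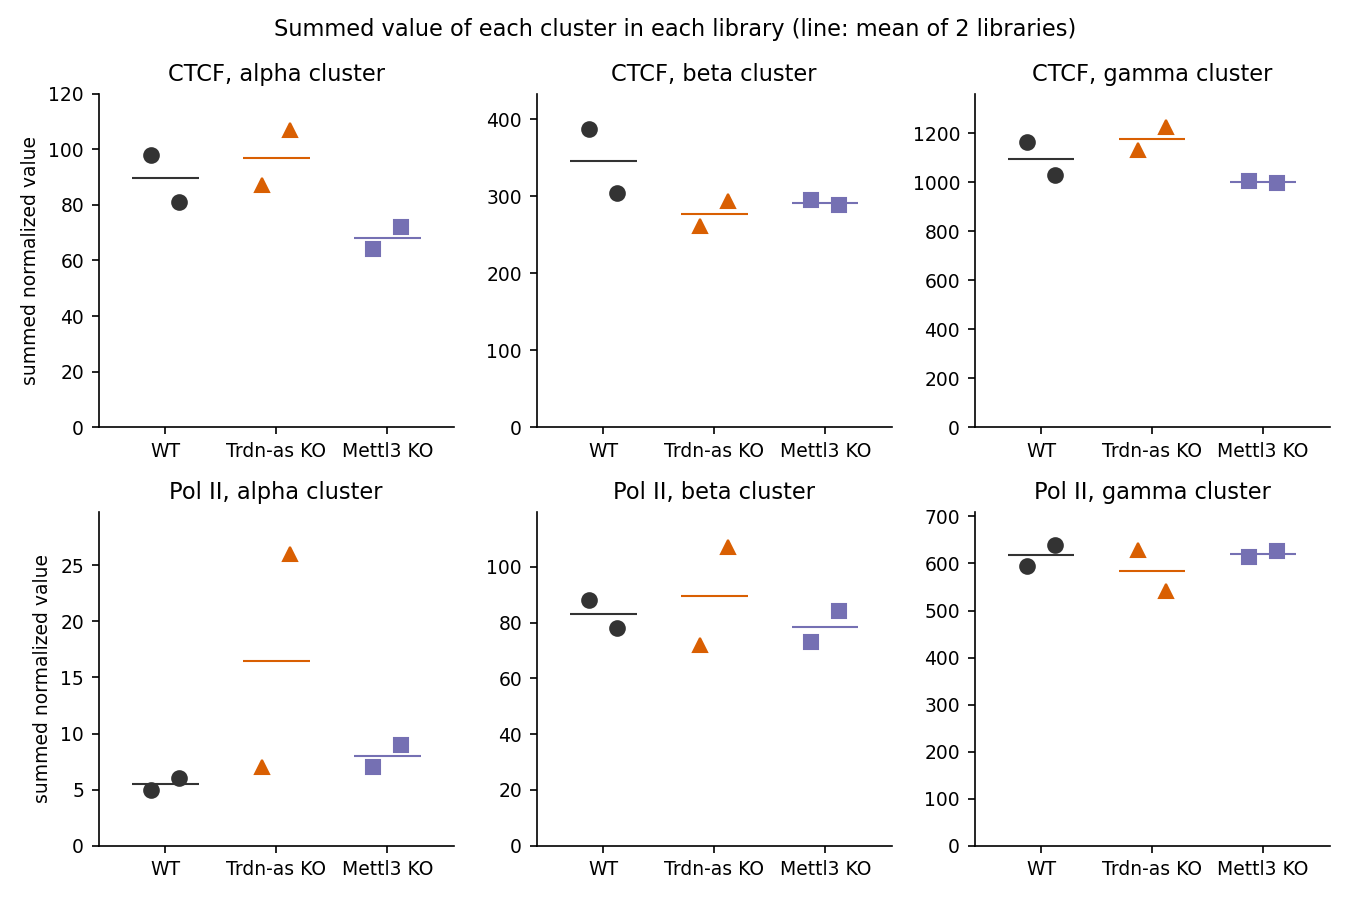
Summed normalized value of the alpha, beta and gamma rows (columns) for CTCF (top) and Pol II (bottom) in each library, with a line at the mean of the 2 libraries of a genotype. All axes start at 0. The beta sum of CTCF is highest in WT replicate 1 (388), and the alpha sum of Pol II is 26 in *Trdn-as* KO replicate 2 and 5 to 9 elsewhere.

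For Pol II, 30 of the 62 peaks had values high enough for the test, 5 beta, 21 gamma and 4 others. No alpha peak was among them. In *Trdn-as* KO against WT, 0 of 30 passed the threshold in limma against 0.304% of the 52655 tested peaks, and 2 had an unadjusted p under 0.05 against 7.7% of all. The median log2 fold change was -0.21 over the gamma peaks and -0.07 over all tested peaks, and 14 of 21 gamma peaks were below 0, against 57.6% of all. With *Trdn-as* KO replicate 2 left out, the gamma median was 0.03 and that of all peaks 0.08. Scaled to RPM, it was -0.80 with 18 of 21 gamma peaks below 0, against 90.8% of all. The smallest p belonged to *Pcdhgb8*, with 29 and 23 for WT and 8 and 16 for *Trdn-as* KO (log2 fold change -1.12, SE 0.47, adjusted p = 0.523), and the fold change was -0.66 without *Trdn-as* KO replicate 1. *Pcdhgb2* was next with 10 and 31 for WT and 31 and 43 for *Trdn-as* KO (1.00, SE 0.43, adjusted p = 0.548), and rested on the WT library used, with 0.23 without WT replicate 1 and 1.77 without WT replicate 2.

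In *Mettl3* KO against WT, 0 of the 30 Pol II peaks passed in limma against 1.19% of all tested peaks, and 0 had an unadjusted p under 0.05 against 15.5% of all. The gamma median was -0.01, against 0.08 over all tested peaks, and 11 of 21 gamma peaks were below 0, against 44.8% of all. It turned to 0.12 without *Mettl3* KO replicate 1, with 6 of 21 below 0, and was -0.18 without *Mettl3* KO replicate 2, -0.26 without WT replicate 1 and -0.02 without WT replicate 2, while the median of all peaks stayed between 0.04 and 0.14. Scaled to RPM, the gamma median was -0.15 with 15 of 21 below 0, against 54.5% of all. With an equal median log ratio it was -0.10 with 14 of 21 below 0, against 51% of all. The fibroblast markers, whose summed Pol II was higher in both *Mettl3* KO libraries than in WT, had 4 of 6 genes past the threshold. In *Trdn-as* KO against *Mettl3* KO, 3 of the 6 passed, all lower, against 1.5% of all tested peaks. Their median log2 fold change there was -0.73, against -0.16 over all. The part of these markers in the results of either comparison was not tested. The smallest p belonged to ENSMUSG00000102713, with 1 and 9 for WT and 24 and 5 for *Mettl3* KO (log2 fold change 1.45, SE 0.85, adjusted p = 0.408). Leaving out a library moved this value to 0.29 (WT replicate 1), 2.61 (WT replicate 2), 0.42 (*Mettl3* KO replicate 1) and 2.48 (*Mettl3* KO replicate 2). *Pcdhgb7* had 3 and 20 for WT and 21 and 13 for *Mettl3* KO (0.94, SE 0.62, adjusted p = 0.471), and its direction turned without WT replicate 1 (-0.26), whereas it was 2.13 without WT replicate 2 and 0.61 without *Mettl3* KO replicate 1.

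Between the knockouts, 0 of 30 Pol II peaks passed in limma against 1.5% of all tested peaks, and 2 had an unadjusted p under 0.05 against 17.9% of all. The gamma median was -0.15, against -0.16 over all tested peaks, and 12 of 21 gamma peaks were below 0, against 60.5% of all. Without the *Trdn-as* KO library that stood apart the gamma median was 0.06 with 10 of 21 below 0, and that of all peaks -0.02. It was -0.05 without *Trdn-as* KO replicate 1, -0.23 without *Mettl3* KO replicate 1 and -0.07 without *Mettl3* KO replicate 2. Scaled to RPM, 20 of 21 gamma peaks and 82.6% of all peaks were below 0. ENSMUSG00000102828 had 10 and 16 for *Trdn-as* KO and 34 and 26 for *Mettl3* KO (log2 fold change -1.17, SE 0.46, adjusted p = 0.167). *Pcdhb19* had 0 and 8 against 16 and 13 (-2.36, SE 1.00, adjusted p = 0.198), where a count of 0 allows up to 3 reads. It was tested only because of the *Mettl3* KO values, the higher group, so its place among the smallest p is partly set by the filter, and the fold change was -0.78 without *Trdn-as* KO replicate 1 and -3.95 without *Trdn-as* KO replicate 2. Without *Trdn-as* KO replicate 1, which leaves the library that stood apart alone in its group, *3222401L13Rik* (-0.52, adjusted p = 0.0405) and *Pcdhgb5* (-2.37, adjusted p = 0.0314) passed the threshold, 2 of 30 peaks where 9539 of all 52655 passed. The cluster sums of Pol II were 594 and 640 for WT, 629 and 541 for *Trdn-as* KO and 613 and 626 for *Mettl3* KO for the gamma rows, and 88 and 78, 72 and 107, and 73 and 84 for the beta rows.

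Genes that act on the clusters or with their proteins were read out at the promoter peak with the most signal. Of 20 loop and silencing factors, which include cohesin subunits and *Smchd1* and *Setdb1*, known repressors of the clusters, 18 had a promoter peak. None passed the threshold in any of the 6 comparisons, with 16 tested for CTCF and 18 for Pol II, where 0.185% to 1.5% of all tested peaks passed. Pol II was highest at *Stag2* (466 to 755), *Dnmt3a* (395 to 588), *Nipbl* (346 to 472) and *Ctcf* (324 to 478). Their median Pol II fold change in *Mettl3* KO against WT was 0.29 on the log2 scale, against 0.08 over all tested peaks. This reference depends on the filter and the scaling. It was 0.17 with the filter at a value of 30 and -0.06 under RPM. The median fold change was 0.03 for the non-clustered protocadherins and 0.36 for the binding and signalling partners described next.

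Of 13 non-clustered protocadherins 12 had a promoter peak, and none passed in any comparison, with 10 tested for CTCF and 8 for Pol II. *Pcdh7* had the most Pol II of them, with 735 and 756 for WT, 749 and 562 for *Trdn-as* KO and 783 and 712 for *Mettl3* KO. *Pcdh17* had 214 to 307, *Pcdh1* 167 to 221 and *Pcdh12* 120 to 166.

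All 10 binding and signalling partners had a promoter peak and were tested for both proteins. *Wnk1* (729 to 902), *Ctnnb1* (510 to 706), *Ptk2* (366 to 551) and *Fyn* (354 to 525), which encode kinases and beta-catenin, had the most Pol II. *Ptk2b*, whose tyrosine kinase PYK2 binds the constant part of alpha and gamma protocadherins, was the only gene of the 3 lists past the threshold, in 1 comparison, Pol II between the knockouts, where 1.5% of all tested peaks passed. Its Pol II values were 4 and 9 for WT, 9 and 2 for *Trdn-as* KO and 28 and 35 for *Mettl3* KO. The log2 fold change of *Trdn-as* KO against *Mettl3* KO was -2.56 (SE 0.67, adjusted p = 0.0331). The peak met the filter only through *Mettl3* KO, the group where it is high, and at the same fold change it did not pass with no filter (adjusted p = 0.396), in a fit of the compared genotypes alone (0.0912) or with no variance trend (0.306). Nor did it pass without *Mettl3* KO replicate 1 (-2.72, adjusted p = 0.401), *Mettl3* KO replicate 2 (-2.41, adjusted p = 0.642) or *Trdn-as* KO replicate 2 (-1.69, adjusted p = 0.297). In the other 5 alternatives it passed, with an adjusted p of 0.0052 to 0.0438. In *Mettl3* KO against WT it did not pass (2.19, SE 0.67, adjusted p = 0.086).

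The end of the window cuts close to a further peak. The last gene end, 37974926, falls inside a peak with no gene from 37974182 to 37975698, which was not counted, and the next peak starts at 37981554.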

How the data were processed

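The authors trimmed the ChIP-seq reads with Trimmomatic 0.39, aligned them to mm39 (GRCm39) with STAR 2.7.11b, removed duplicates (Picard 3.1.1) and multi-mapping reads, called and merged MACS peaks and counted reads with featureCounts. The deposited signal is this count matrix normalized by the authors with DESeq2 1.36.0 and rounded to whole numbers, in 15 columns of single libraries. Input was not analysed here.

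The value of 1 read was estimated from the spacing of the values, and RPM used the uniquely mapped reads stated by the study. Floors cover counting error only. Genotypes were compared with limma 3.58.1 in R 4.3.3 on log2(value + 1) with a variance trend over the 6 libraries of an antibody, at an adjusted p of 0.05. Both steps were tested on simulated data. Python 3.11.15, pandas 2.3.3 and matplotlib 3.10.9 were also used. Other scalings, filters, pseudocounts, sample sets and a replicate block were tried.

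The members, the 3 gene lists and the 7 marker lists were chosen with earlier results of these data known. Peaks named are, per cluster, the 4 highest for CTCF and 3 highest for RNA polymerase II, the C-type genes, among other peaks the 4 highest for CTCF and the highest for RNA polymerase II of each gene, and the 2 smallest p per comparison. *Pcdhb20*, *Pcdhga5* and *Pcdhgb5* fall outside this rule and were chosen after their values were seen. No sequence is shown, since the reference at hand is of another build.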

Additional observations from a re-analysis of the deposited data

How the results depend on the processing

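The 6 counts of peaks of the window past the threshold, all 0, were recomputed under 12 alternatives each, and 13 for CTCF in *Trdn-as* KO against WT. They stayed at 0 in all 12 for CTCF in *Mettl3* KO against WT and for Pol II in both comparisons with WT. For CTCF in *Trdn-as* KO against WT, 1 peak passed with an equal median log ratio and 1 with a crossed replicate block, *Pcdhb11* each time. This block, chosen after seeing the data, pairs *Trdn-as* KO replicate 1 with WT replicate 2, since the deviations of same-numbered libraries correlated at -0.238. For CTCF between the knockouts, 1 peak passed with the filter at 30. For Pol II between the knockouts, 0 to 2 passed when a library was left out, at most 1 of them a protocadherin peak. The replicate block by number gave 0 peaks of the window in all 6 comparisons. The other correlations of same-numbered libraries were -0.0096 to 0.0059. Such values cannot decide whether libraries with the same number share a preparation. The count over all peaks moved more. It was 356, 112 and 828 for CTCF in *Trdn-as* KO against WT, *Mettl3* KO against WT and between the knockouts, and ran from 37 to 503, 0 to 657 and 26 to 1186 over alternatives with all libraries. It was 1 to 5, 0 and 1 to 21 when a library was left out. For Pol II it was 160, 629 and 790, and ran from 4 to 316, 2 to 4861 and 12 to 1578 with all libraries and from 19 to 1908, 0 to 13 and 12 to 9539 when a library was left out. The cause was not tested.

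The mean log2 ratio of the cluster sums of Pol II moved under RPM scaling, which shifted the median of all tested Pol II peaks in *Trdn-as* KO against WT from -0.07 to -0.67. It went from 0.08 to -0.52 in the beta and from -0.08 to -0.68 in the gamma cluster in *Trdn-as* KO against WT, and from 0.01 to -0.13 in the gamma cluster in *Mettl3* KO against WT. Between the knockouts it went from 0.16 to -0.30 in the beta and from -0.09 to -0.55 in the gamma cluster. Placing peaks by position instead of symbol moved none of the ratios by more than the replicate SD, and neither change did so for CTCF. Of the 12 peaks with the smallest p, 1 turned direction, *Pcdhgb7* for Pol II in *Mettl3* KO against WT, which ran from -0.26 to 2.13 when a library was left out, below 0 without WT replicate 1. The level of a cluster with 1 library left out is the value of the other library, given above. Low reads limit Pol II over the alpha and beta genes.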
